A study of Mus musculus with 2 samples.

Results

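The transcription factors that set and keep the identity of lung epithelium were read in mouse lung cells sorted as SPC/GFP+ EpCAM+. They are Nkx2-1, Foxa1, Foxa2, Gata6, Cebpa, Cebpb, Cebpd, Etv5, Sox9 and Sox2, 10 genes of the 19505 named on the array, found by their symbol in the platform annotation. Each had 1 platform identifier, called a probe here. Surfactant protein C (SPC) is made by alveolar type 2 cells, and EpCAM is an adhesion molecule of epithelial cells. One sample came from mice that breathed smoke for 3 months and the other from control mice that breathed air for 3 months, and both carried the SPC/GFP marker used in the sort. Each sample was hybridised to 1 Clariom S Mouse array (Affymetrix). Strain, age, sex, the number of mice behind a sample, the construct behind the GFP signal and the kind of smoke do not appear in the sources used here.

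Alveolar type 2 cells make surfactant and can divide and turn into the flat type 1 cells of gas exchange. NKX2-1 is the homeodomain factor that founds the lung lineage and activates surfactant genes, working with the pioneer factors FOXA1 and FOXA2, with GATA6 and with C/EBPα. ETV5, an ETS factor downstream of FGF signalling, maintains the type 2 state. SOX9 marks the distal tips of the embryonic lung and SOX2 its conducting airways, while C/EBPβ and C/EBPδ are leucine zipper factors that respond to inflammatory and hormonal signals and drive acute phase genes.

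With 1 array per group no SD, test or p-value exists, the number of arrays limits the precision, and each difference compares these 2 samples rather than the conditions. Signals are the deposited values, taken as log2. Counts of higher and lower genes rest on a log2 difference, smoke minus air, of 1 or more in size (2-fold) in genes whose brighter array reached 4.57, the median of all probe values, called the level filter here. Of 10419 genes above this filter 6.41% passed 2-fold, made up of 3.94% higher and 2.48% lower in smoke. Sftpc, which encodes SPC, was at the upper limit of the scale, 19.93, on both arrays, and Epcam was at 10.92 in smoke and 11.09 in air. Both RNA signals lay above the level filter in each sample, but the sort itself used GFP and EpCAM rather than RNA. In sorted bulk samples, fewer cells of a type and less RNA per cell cannot be told apart.

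Of the 10 lineage factors, Cebpd was higher past 2-fold on the smoke array, 7 were within 2-fold, and Sox9 and Sox2 stayed below the level filter on both arrays. No factor was lower past 2-fold. Of the 8 above the filter, 1 was higher, beside 3.94% of all genes, a number too small to set the factors apart. Their median log2 difference was 0.00, as it was over all 10, against 0.06 for all genes above the filter, and the median size of their differences regardless of sign was 0.29, against 0.33. Etv5 is among the 8 although it lies next to the upper limit of the scale; without it, 6 factors were within 2-fold and that median size was 0.33.

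**Figure D1:**
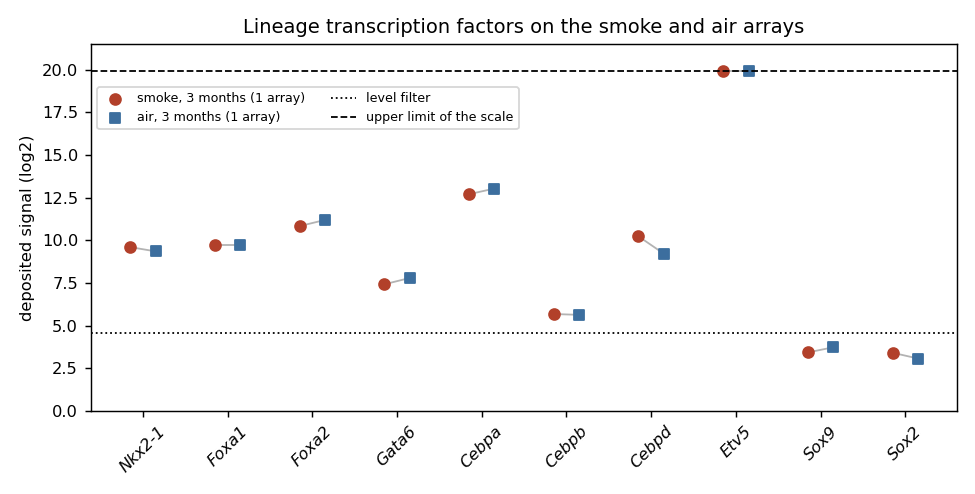
Deposited log2 signal (vertical axis) of the 10 lineage transcription factors, with 1 point for the smoke array and 1 square for the air array per gene; no error bar exists with 1 array per group. Cebpd is the gene with the widest gap, at 10.23 in smoke and 9.21 in air, Etv5 lies just under the upper limit of 19.93 and Sox9 and Sox2 lie under the level filter of 4.57.

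Such factors read short DNA motifs, many of them close to the transcription start. The stretches below hold the 150 bases before the RefSeq start. They belong to Sftpb and to 3 genes, higher in smoke, of the C/EBP acute phase list read below. Sftpb encodes surfactant protein B and is a classic target of NKX2-1 and the FOXA factors. The stretches are taken from RefSeq in build GRCm38.p6 and run 5′ to 3′ on the gene's strand. Saa3 is at chr7:46715677-46715826 (minus strand), Orm2 at chr4:63362299-63362448 (plus), Il6 at chr5:30012964-30013113 (plus) and Sftpb at chr6:72304460-72304609 (plus). Capitals in the first 3 mark the C/EBP motif TTGCNNAA on either strand, and in Sftpb they mark the NKX2-1 core CTCAAG and the FOXA core TGTTTGC, also on either strand.
Saa3: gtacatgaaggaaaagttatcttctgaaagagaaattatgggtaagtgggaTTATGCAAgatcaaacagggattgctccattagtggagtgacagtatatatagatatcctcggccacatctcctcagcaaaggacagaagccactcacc
Orm2: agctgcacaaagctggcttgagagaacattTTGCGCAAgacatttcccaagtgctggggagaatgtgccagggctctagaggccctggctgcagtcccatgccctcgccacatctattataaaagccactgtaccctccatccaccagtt
Il6: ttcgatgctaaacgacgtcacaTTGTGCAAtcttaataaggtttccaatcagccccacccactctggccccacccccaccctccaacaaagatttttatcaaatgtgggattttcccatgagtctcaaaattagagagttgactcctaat
Sftpb: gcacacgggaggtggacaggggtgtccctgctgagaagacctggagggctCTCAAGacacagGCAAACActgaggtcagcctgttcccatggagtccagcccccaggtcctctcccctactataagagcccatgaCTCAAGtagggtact

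The C/EBP motif begins 99 bases before the start in Saa3, 120 in Orm2 and 128 in Il6. In Sftpb the NKX2-1 core begins 100 and 15 bases before the start, and a FOXA core begins 88 bases before it, shortly after the first NKX2-1 core. Over the 250 bases before each start, the C/EBP motif is found in 9.56% of 32851 promoters in the RefSeq table, the NKX2-1 core in 13.3% and the FOXA core in 4.30%. Among 12 surfactant and secretory genes read below that had a promoter entry, the NKX2-1 core was in 3 and the FOXA core in 3. Sftpb and Scgb3a1 held both, so Sftpb does not stand for that list. A match describes letters and does not show that a factor binds there.

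NKX2-1, the master regulator of the lung lineage, had a signal of 9.60 on the smoke array and 9.35 on the air array for its gene Nkx2-1. The log2 difference was 0.25, and 123 of the 200 genes nearest in mean level differed by at least as much in either direction. The founding factor of the lineage was within 2-fold and well inside the differences usual at its level.

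The pioneer factors FOXA1 and FOXA2 open closed chromatin for other factors and can stand in for each other in lung development. Foxa1 was at 9.73 in both smoke and air. Foxa2 was at 10.83 in smoke and 11.19 in air, a log2 difference of -0.36. Of the 200 genes of like level, 167 had a higher difference than Foxa2 and 33 a lower one, and their median was 0.115. In either direction, 92 of these 200 differed by at least as much as Foxa2. Gata6, a zinc finger factor of foregut endoderm that acts with NKX2-1 on surfactant promoters, was at 7.42 in smoke and 7.79 in air. Its difference was -0.37, with 163 of its 200 neighbours in level higher and 36 lower. In either direction, 87 of these neighbours differed by at least as much.

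Of the 3 C/EBP genes, Cebpd alone passed 2-fold. Cebpa, which drives type 2 cell maturation and lipid metabolism, was at 12.70 in smoke and 13.03 in air, a log2 difference of -0.33. Of 200 genes of like level, 174 had a higher difference, and 81 differed by at least as much in either direction. Cebpb, which takes part in acute phase and macrophage programmes, was at 5.68 in smoke and 5.63 in air, a difference of 0.05. Cebpd, induced by inflammatory cytokines and by glucocorticoids, was at 10.23 in smoke and 9.21 in air, 2.03-fold higher with a log2 difference of 1.02. The difference of Cebpd exceeded that of Cebpa by 1.35 and that of Cebpb by 0.97 on the log2 scale, gaps that have no replicate check.

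Cebpd lay close to the threshold. Of the 200 genes nearest to it in mean level, 8 had a higher difference, 14 differed by at least as much in either direction, and their central 95% range ran from -1.01 to 1.06. The robust SD of their differences, a scaled median absolute deviation, was 0.452, which puts Cebpd 1.88 such SDs above their median. Under quantile normalization its difference was 0.90 and after centring on genes of like level it was 0.84, both under 2-fold.

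Etv5 stood at 19.91 on both arrays, just under the upper limit of 19.93. A higher level could hardly show there, so its difference of 0.00 says little about any increase. Sox9 was at 3.43 in smoke and 3.73 in air, and Sox2 was at 3.41 in smoke and 3.07 in air. Both factors of embryonic tip and airway fate lay under the level filter in each sample, so no fold is given, and no detection call was used to say whether they were expressed.

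**Figure D2:**
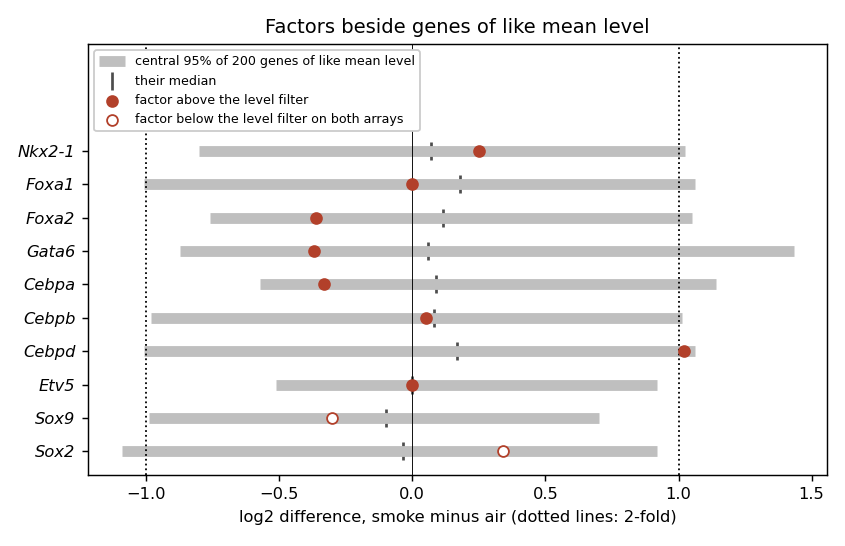
Log2 difference, smoke minus air, of each factor (points; open where both arrays were below the level filter), beside the central 95% (bars) and median (ticks) of the 200 genes nearest in mean level. All 10 factors lie inside their bar, and Cebpd at 1.02 is the closest to its upper end of 1.06. For Etv5 the 200 genes span mean levels of 15.55 to 19.93 and include genes at the upper limit, so its place inside the bar says little.

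Close relatives of the factors were mostly below the level filter. Of 20 family members in the table, 6 passed it; 1 was lower past 2-fold, none was higher, and 5 were within 2-fold. Gata2, a GATA factor of endothelial and blood cells, was at 8.19 in smoke and 9.21 in air, 2.03-fold lower, a log2 difference of -1.02 that was -0.98, just under 2-fold, with an offset of 16 added on the linear scale to damp differences between low signals. The median of the 6 was -0.40, against 0.06 over all genes above the filter, and it was -0.117 with the filter set on the mean of both arrays; Nkx2-6 and Gata4 had passed by their air signal alone. Endothelial markers were mostly lower on the same array: 10 of 12 above the filter had a negative difference, and the median of the 12 was -0.705. Past 2-fold, 3 of the 12 were lower, beside 2.48% of all genes above the filter. The summed linear signal of the list was 25393 in smoke and 40022 in air. This sum rests mostly on Cdh5, at 13.86 in smoke and 14.34 in air, and Eng, at 12.60 in smoke and 13.63 in air. The part of endothelial cells in the Gata2 difference was not tested.

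Other lung regulators, a list not limited to epithelium, had no member past 2-fold. All 27 of the 30 measured that passed the filter were within 2-fold, 15 higher and 12 lower in sign, with a median of 0.09. Sox4, 1 of the 12, passed by its air signal alone. Of the 26 above the filter on both arrays, 15 were higher and 11 lower in sign, with a median of 0.105. Irx1, an Iroquois homeobox factor of the developing lung, had the largest difference at 0.98, with 11.33 in smoke and 10.35 in air. Stat3, the factor through which IL-6 family cytokines signal, was at 13.87 in smoke and 12.94 in air, and Ehf, an epithelial ETS factor, was at 11.43 in smoke and 10.50 in air. These differences of 0.93 each came just under the threshold, and the pair was named after its values were seen. Tbx4, a T-box factor of lung mesenchyme, lay at the other end, at 5.13 in smoke and 5.86 in air.

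Factors of other fates stayed low or within 2-fold. Of 12 airway fate factors, 5 passed the filter and all were within 2-fold; the largest difference was that of E2f4, which takes part in making multiple cilia, at 7.54 in smoke and 8.06 in air. Their median was 0.12. All 9 measured gut and liver factors, among them Hnf4a and Cdx2, were below the level filter on both arrays. Loss of NKX2-1 in mouse lung is known to release Hnf4a and other gut genes. Hnf4a was at 2.61 in smoke and 3.20 in air, and Cdx2 at 2.74 in smoke and 2.72 in air.

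Surfactant and secretory targets of the NKX2-1 network gave no member higher past 2-fold. Of 20 genes, 7 had the upper limit of 19.93 on both arrays, so no difference could be measured for Sftpa1, Sftpb, Sftpc, Lamp3, Slc34a2, Muc1 and Scgb1a1. Of the 12 others above the filter, 11 were within 2-fold and 1 was lower, with a median of 0.04. Sftpd, which encodes the collectin surfactant protein D, was at 18.35 in smoke and 18.30 in air, and Cldn18, an alveolar tight junction gene, at 18.52 in smoke and 18.55 in air. Scgb3a1, a secretoglobin of airway secretory cells, was at 5.02 in smoke and 6.85 in air, 3.56-fold lower. With the offset, its log2 difference was -1.44 instead of -1.83.

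C/EBP acute phase targets included several genes higher in smoke. Of 14 genes in the table, 8 had a measurable difference above the filter. All 8 were positive, with a median of 1.27, against 0.06 for all genes above the filter. Past 2-fold, 5 were higher and none was lower, beside 3.94% higher and 2.48% lower of all genes above the filter. Without Orm2, above the filter in smoke alone, the median was 1.05, and with the filter at the 75th percentile 1 member was higher past 2-fold. Over all 13 measurable members, low ones included, the median was 0.63. Several of these genes belong to the inflammatory group already known to be higher on this smoke array, so the count is not independent of that result.

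Saa3, the serum amyloid A of macrophages and epithelium, was at 7.49 in smoke and 5.09 in air, 5.28-fold higher. Orm1 and Orm2 encode α1-acid glycoproteins, plasma proteins that bind drugs and dampen inflammation. Orm1 was at 6.92 in smoke and 5.16 in air, 3.39-fold higher, and Orm2 was at 6.20 in smoke and 4.53 in air, 3.18-fold higher. They are near copies whose probes may not separate them, and Orm2 was below the filter in air.

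Itih4, an acute phase protein of the inter-α-trypsin inhibitor family, was at 14.58 in smoke and 13.09 in air, 2.81-fold higher. Il6, the cytokine that induces acute phase genes, was at 6.65 in smoke and 5.60 in air, 2.07-fold higher. With the offset, the log2 difference of Il6 was 0.85, under 2-fold, while those of Saa3, Orm1, Orm2 and Itih4 were 1.97, 1.41, 1.19 and 1.49. Hp, Ptgs2 and Cp were within 2-fold, at 0.43, 0.68 and 0.63, and Lcn2 reached the upper limit in both samples. Saa1, Saa2, Csf3, Tnfaip6 and Fgb stayed below the filter.

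The C/EBP motif of the promoters printed above was present in 10 of the 12 listed acute phase genes with a RefSeq promoter. The list was meant to hold C/EBP targets, so this share may follow in part from how the genes were chosen. Genes with a match included Saa3, Orm2 and Il6, higher past 2-fold, as well as Saa1, Saa2 and Fgb, below the filter on both arrays. Itih4, higher past 2-fold, had none in its window. Among the lineage factors themselves, 7 had an entry, and Sox2 was the 1 gene with a C/EBP match; the NKX2-1 core was found in a promoter of Foxa2, and the FOXA core in none. Cebpd, Gata6 and Sox9 were not matched in that table.

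FGF feedback genes, read because ETV5 acts downstream of FGF receptors, went both ways. Of 7 above the filter, all were within 2-fold, 4 positive and 3 negative, with a median of 0.12. Fgfr2, the receptor through which FGF7 and FGF10 act on epithelium, was at 14.79 in smoke and 13.81 in air, a log2 difference of 0.98. The feedback inhibitors Spry4 and Spry1 had differences of -0.65 and -0.62, and the phosphatase gene Dusp6 was at 11.92 in smoke and 12.44 in air. Etv4, the closest relative of Etv5 on the list, was under the filter in both samples, at 2.69 in smoke and 2.94 in air.

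**Figure D3:**
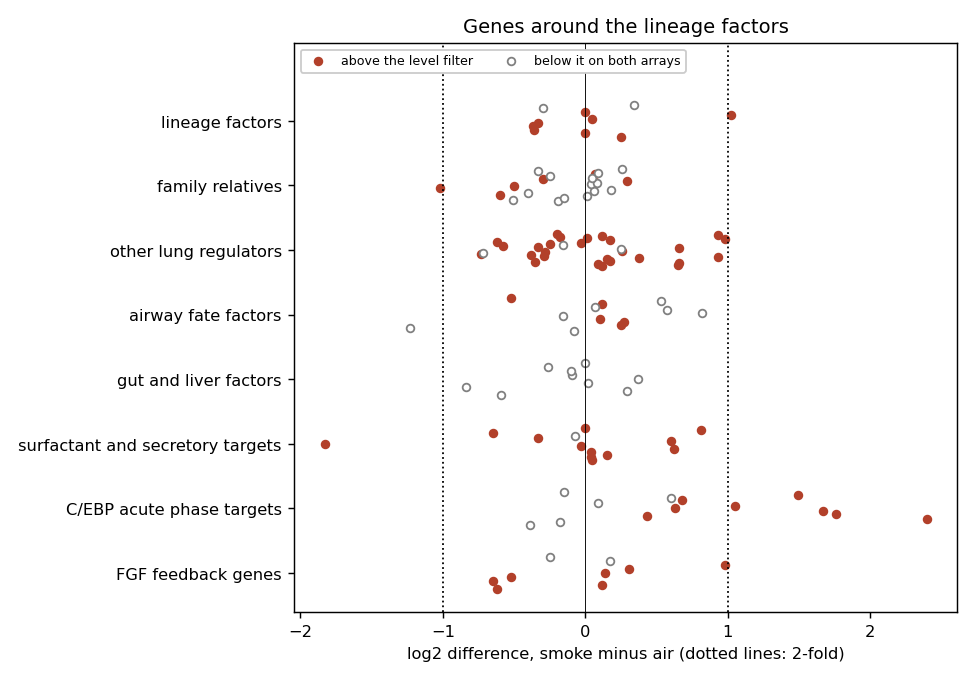
Log2 difference, smoke minus air, of each gene in the factor list and the 7 lists around it (rows; vertical spread within a row is for legibility), filled where the gene was above the level filter and open where it was below on both arrays; genes that reached the upper limit in both samples are left out. The C/EBP acute phase row reaches 2.40, while all filled points of the other lung regulators lie inside the 2-fold lines.

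Markers of the cells that could share the sort were read beside the factors, because several C/EBP, GATA and SOX genes are also used by blood, vascular and airway cells. Neutrophils use C/EBP factors: 6 of the 10 markers measured were above the filter, 5 positive and 1 negative, but Retnlg and Il1r2 passed by their smoke signal alone, and of the 4 above the filter on both arrays 3 were positive and 1 negative. Their list summed to a linear signal of 816 in smoke and 579 in air. Csf3r, the G-CSF receptor, was at 8.72 in smoke and 8.12 in air, and Il1r2, a decoy receptor, was at 5.61 in smoke and 4.49 in air, while the granule genes Ngp, Camp and Ltf were below the filter on both arrays. For macrophages and monocytes, 4 of 5 above the filter were negative, 1 of them (Ccr2) above it in air alone. Marco, Siglecf, Adgre1, Itgax and Fcgr1 of the same list were below the filter on both arrays. The linear sum of that list was 2408 in smoke and 3831 in air. This lower sum in smoke rests on Chil3, the brightest marker of the list, at 9.87 in smoke and 11.27 in air. The part of either cell type in the Cebpd and acute phase differences was not tested.

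Endothelial Cdh5, VE-cadherin, was at 13.86 in smoke and 14.34 in air, and Sox18, an endothelial SOX factor, had the largest difference of its list at -1.64, with 5.75 in smoke and 7.39 in air. Sox17 was below the filter. Among airway cells, 4 of 6 club markers with a measurable difference above the filter were negative, and so were 4 of 6 ciliated markers above it. Ciliated Dnah5, 1 of these 4, passed by its air signal alone. Of the 5 ciliated markers above the filter on both arrays, 3 were negative and 2 positive. Scgb1a1 was at the upper limit, and Sec14l3 was at 13.32 in smoke and 13.63 in air. Cfap126 was higher past 2-fold at 8.21 in smoke and 6.65 in air, and Tppp3 was lower past 2-fold at 9.02 in smoke and 10.46 in air. Basal and neuroendocrine markers had 1 of 8 above the filter, Syp, at 4.68 in smoke and 5.11 in air.

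Alveolar type 2 markers were at the upper limit for 7 of 14 genes, and the other 7 were within 2-fold with a median of 0.04; the largest difference was that of Egfl6, at 17.98 in smoke and 17.49 in air. All 13 type 1 markers were within 2-fold, 9 negative and 3 positive, with a median of -0.23; Gprc5a was at 18.68 on both arrays and Clic5 at 15.46 in smoke and 16.14 in air. Of 5 lymphocyte markers above the filter, Cd3d was past 2-fold, at 4.66 in smoke and 3.63 in air. Cd3d passed the filter by its smoke signal alone, and its log2 difference was 0.54 with the offset. Ptprc was at 7.59 in smoke and 7.64 in air. Of 9 fibroblast and smooth muscle markers, 2 were lower past 2-fold, Col1a1 at 5.06 in smoke and 6.24 in air and Pdgfrb at 5.09 in smoke and 6.09 in air. With the offset their log2 differences were -0.89 and -0.75, under 2-fold. Fn1 was at 7.27 in smoke and 7.38 in air.

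**Figure D4:**
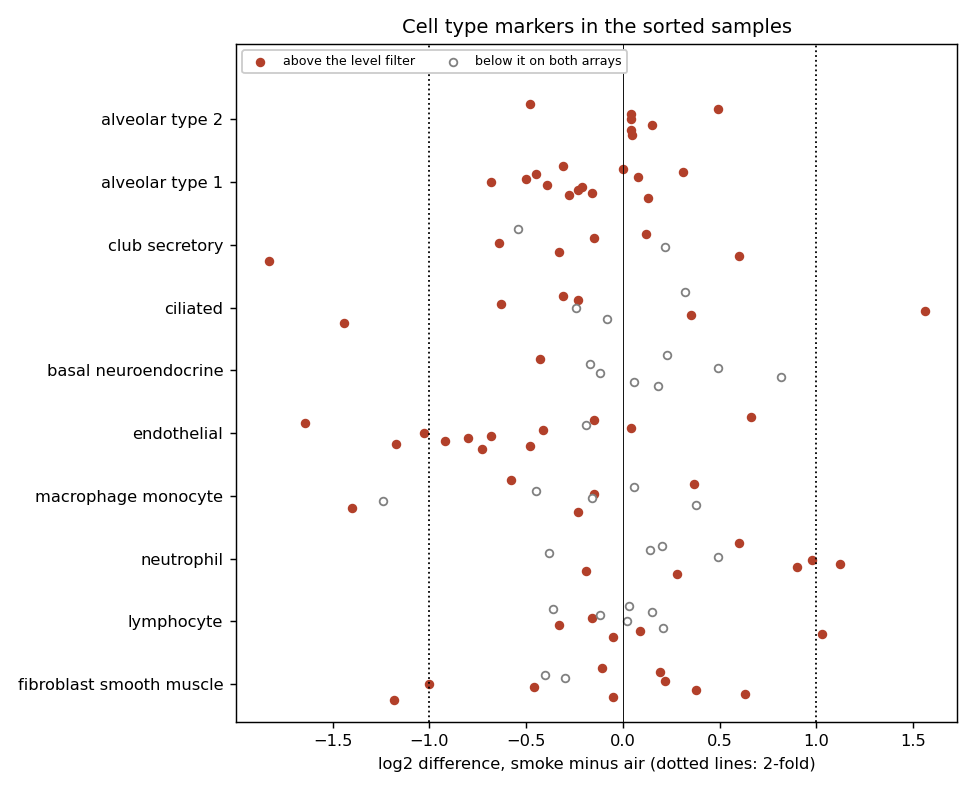
Log2 difference, smoke minus air, of cell type markers in the sorted samples (rows; filled above the level filter, open below it on both arrays). Endothelial markers lie mostly left of 0, with 10 of 12 filled points negative, and the filled neutrophil points right of 0 include Il1r2, which passed the filter by its smoke signal of 5.61 alone.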

How the data were processed

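The authors deposited 1 value per probe and array, taken as log2 signal from the range of 1.55 to 19.93. Per the submitters' processing notes the software was Transcriptome Analysis Console; no version, settings, between-array normalization or build is given in the sources used here. Medians were 4.53 for smoke and 4.61 for air. Scale and centring are unstated, and the direction follows from the labels. Fold values hold on this scale only.

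Of 22206 probes, 19572 had 1 gene symbol, 0 had several and 2634 are unnamed here; probes of a gene were averaged (55 genes had several). Entrez numbers matched RefSeq symbols for all 19572. Counts leave out 16 genes that reached the upper limit in both samples. Each factor was set beside the 200 genes nearest in mean level. The calling step was run on simulated data with changes of more than 2-fold planted in genes of middle signal. That run does not bear on calls close to 2-fold, on low signals or on the upper limit. Calculations used Python 3.11.15, numpy 2.4.6 and pandas 2.3.3.

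The members, the 7 pathway lists and the 10 marker lists were chosen with earlier results of these data known. Named genes are the 10 factors; up to 3 per direction past 2-fold per pathway list, or else its largest difference; the brightest marker and the largest difference per marker list; and Sftpc and Epcam. Others were named after their values were seen. Alternatives covered the filter, the fold, quantile normalization, centring by level, an offset, probe choice and the number of neighbours.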

Additional observations from a re-analysis of the deposited data

How the results depend on the processing

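The count of 1 lineage factor higher past 2-fold, which is Cebpd, became 0 at 3-fold, under quantile normalization and after centring on genes of like level, where the difference of Cebpd was 0.90 and 0.84. The count of factors lower stayed at 0 under every alternative run to filter, fold, scaling, offset and probe choice. The difference of Cebpd ranged from 0.84 to 1.02, of Nkx2-1 from 0.115 to 0.25, of Foxa1 from -0.20 to 0.00, of Foxa2 from -0.49 to -0.36, of Gata6 from -0.465 to -0.34 and of Cebpa from -0.44 to -0.33. Over all genes, the 410 higher and 258 lower became 212 and 74 with the filter at the 75th percentile, 1514 and 958 at 1.5-fold, 66 and 35 at 3-fold and 243 and 102 with the offset; without a filter 407 were lower, and with the filter required on both arrays, an alternative chosen after seeing the data, 149 were lower. With the stricter filter 1 of the C/EBP acute phase targets was higher past 2-fold in place of 5, because Saa3, Orm1, Orm2 and Il6 fall below that filter. In all, 340 of 371 recomputed values kept to the reported one. The rule was within 1.5 times for counts and within the spread of differences between genes, 0.474, for log2 differences and medians. Shares of like-level genes had to stay inside a binomial interval of the reported share. Much of this count was fixed in advance, because filter and fold settings cannot change a gene's log2 difference, and 0 against 0 counts as kept. Cebpd at 0.90 and 0.84 also counted as kept, although its 2-fold call was lost. No paired analysis was possible because each group has 1 array. Low signals near 4.57 and the upper limit of 19.93 bound what could be measured, and that limit bears on Etv5 and on 7 surfactant and secretory genes.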
